A study of Schizosaccharomyces pombe with 6 samples.

Results

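The genes described here are 10 genes of peroxide detoxification and thiol reduction in the fission yeast *Schizosaccharomyces pombe*, chosen by name from the 7008 genes listed in each table: the catalase *ctt1*, the glutathione peroxidase *gpx1*, the peroxiredoxin *tpx1*, the sulfiredoxin *srx1*, the thioredoxin reductase *trr1*, the thioredoxins *trx1* and *trx2*, the glutaredoxins *grx1* and *grx2*, and the superoxide dismutase *sod1*. Their mRNA was measured by RNAseq as FPKM, which counts fragments relative to transcript length and to the mapped total of the library. The 6 libraries were wild type cells shifted for 15 minutes from 24°C to 36°C (heat stress), *mas5Δ* cells, which lack the Hsp40 co-chaperone Mas5, *ssa2Δ* cells, which lack the Hsp70 chaperone Ssa2, and wild type cells, all in rich YES medium and unstressed at 24°C unless stated, together with *nmt1:hsf1* cells and wild type cells in minimal medium without thiamine at 24°C. In *nmt1:hsf1* cells the heat shock factor Hsf1 is made from the *nmt1* promoter, which is active when thiamine is absent. Each condition had 1 library, so no value below carries a replicate error or a p-value, and a difference between libraries cannot be set against the spread between cultures.

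Hydrogen peroxide is removed in this yeast by catalase, which splits it directly, and by peroxidases that pass on electrons from thiols: Gpx1, and the peroxiredoxin Tpx1, which thioredoxin reduces again with electrons that thioredoxin reductase takes from NADPH. Glutaredoxins draw on glutathione in the same way, sulfiredoxin repairs peroxiredoxin that peroxide has overoxidised, and superoxide dismutase produces peroxide from superoxide. The stress-activated kinase Sty1 with its transcription factor Atf1-Pcr1, and the transcription factor Pap1, whose oxidation is relayed by Tpx1, are known to control many of these genes under peroxide, and heat shock genes are controlled by Hsf1.

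The labels were first checked on the altered genes. *mas5* was at 36.4 FPKM in *mas5Δ* cells, against 470.3 FPKM in wild type cells, *ssa2* was at 55.0 FPKM in *ssa2Δ* cells, against 2960 FPKM in wild type cells, and *hsf1* was at 922 FPKM in *nmt1:hsf1* cells, against 93.4 FPKM in wild type cells of the same medium. Each of the 4 tables was scaled separately and holds 2 libraries. The wild type library in rich medium stands in 3 of them, so those comparisons share their reference. For the *nmt1:hsf1* table the order of the columns was taken from the other tables, and *hsf1* is the higher in the column so taken as *nmt1:hsf1*. The sums of FPKM over all genes lay between 764347 and 1081090, and the sequencing depth of a library is unknown.

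All 10 genes were found in RefSeq (assembly ASM294v3). The 250 bases before the annotated start of 5 of them are shown, because these genes rose more than 2-fold in at least 1 comparison and hold a motif searched for upstream of their start. Capitals mark the matches, some of which read as the reverse complement of the motif named, and each sequence runs 5′ to 3′ on the strand of its gene.
ctt1 (chrIII:58834-59083, minus strand): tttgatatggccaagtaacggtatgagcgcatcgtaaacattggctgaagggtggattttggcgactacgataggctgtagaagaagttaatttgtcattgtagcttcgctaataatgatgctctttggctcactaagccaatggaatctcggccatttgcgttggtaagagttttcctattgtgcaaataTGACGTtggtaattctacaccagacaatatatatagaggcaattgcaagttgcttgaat
gpx1 (chrII:2789588-2789837, minus strand): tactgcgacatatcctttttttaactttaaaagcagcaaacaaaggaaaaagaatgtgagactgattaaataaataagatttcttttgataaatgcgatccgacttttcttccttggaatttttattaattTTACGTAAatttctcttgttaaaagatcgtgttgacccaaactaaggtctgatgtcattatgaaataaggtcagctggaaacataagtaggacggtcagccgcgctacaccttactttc
tpx1 (chrIII:2085720-2085969, minus strand): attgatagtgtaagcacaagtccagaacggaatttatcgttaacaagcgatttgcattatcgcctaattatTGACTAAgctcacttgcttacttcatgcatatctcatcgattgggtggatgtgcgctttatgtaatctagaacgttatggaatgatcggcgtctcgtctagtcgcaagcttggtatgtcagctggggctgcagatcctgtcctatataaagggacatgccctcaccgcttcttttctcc
srx1 (chrII:377013-377262, minus strand): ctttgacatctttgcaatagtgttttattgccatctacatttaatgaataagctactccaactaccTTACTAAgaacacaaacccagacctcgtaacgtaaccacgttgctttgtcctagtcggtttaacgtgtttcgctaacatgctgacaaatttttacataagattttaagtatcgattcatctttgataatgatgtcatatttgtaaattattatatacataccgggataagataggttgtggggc
grx1 (chrI:4873969-4874218, plus strand): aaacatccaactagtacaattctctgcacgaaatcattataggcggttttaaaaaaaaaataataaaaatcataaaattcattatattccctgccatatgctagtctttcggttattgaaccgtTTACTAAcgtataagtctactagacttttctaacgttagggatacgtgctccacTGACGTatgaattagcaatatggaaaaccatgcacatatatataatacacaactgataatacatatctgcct

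Motifs were searched on both strands in 300 bases, 250 before and 50 after the start, and the matches in these genes did not overlap each other. TGACGT, the letters bound by Atf1-Pcr1, stood in *ctt1* from 59 bases and in *grx1* from 72 bases before the start, thus in 2 of the 10 genes, and in 5.91% of the 5112 promoters of protein-coding genes. Letters of the Pap1 type stood in 5 of the 10 genes and in 16.2% of all promoters: TTACGTAA in *gpx1* (0.469% of all promoters), TTAGTCA in *tpx1* (4.52%), and TTAGTAA in *srx1*, *grx1* and across the start of *trx2* (12%). GAANNTTC and TTCNNGAA, which are the same on both strands and are the inverted repeats of a heat shock element, stood in 0 of the 10 genes in this window, and 19.9% of all promoters held at least 1 of them. A match or its absence in this window says only which letters are there.

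Heat stress was accompanied by higher mRNA of *ctt1*, *gpx1* and *tpx1*, whose enzymes remove peroxide, of the cytosolic thioredoxin and of 1 glutaredoxin. Among the 10 genes, catalase and glutathione peroxidase changed the most. More than 2-fold is called a rise or a fall throughout. Of the 10 genes 5 rose (*ctt1*, *gpx1*, *grx1*, *tpx1* and *trx1*) and 1 fell (*trx2*), where 14.1% of the 6426 genes with a value above 0 in both libraries rose and 10.3% fell. The median log2 ratio of the 10 genes was 0.97, and that of all genes 0.008. The RNA is from whole cultures, so a change in all cells cannot be told apart from a larger change in some of them, and FPKM is relative to the other mRNAs of a library.

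The catalase mRNA *ctt1* stood at 691 FPKM in heat-stressed cells and 27.2 FPKM in wild type cells at 24°C, a log2 ratio of 4.67 (25.4-fold). The glutathione peroxidase mRNA *gpx1* stood at 3355 FPKM in heat-stressed cells and 199 FPKM in wild type cells, a log2 ratio of 4.08 (16.9-fold). These 2 ratios lay at the 99.17th and 98.7th percentile of all genes, and *ctt1* was the lowest of the 10 genes by FPKM in wild type cells at 24°C. The peroxiredoxin mRNA *tpx1* was already abundant, with 6996 FPKM in heat-stressed cells and 2047 FPKM in wild type cells (log2 ratio 1.77, 3.42-fold). *srx1*, whose product repairs overoxidised Tpx1, was at 70.5 FPKM in heat-stressed cells and 50.7 FPKM in wild type cells (log2 ratio 0.47), so only the peroxiredoxin of this pair passed 2-fold.

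Within the thioredoxin system the 3 genes had ratios on both sides of 0. The cytosolic thioredoxin mRNA *trx1* rose, with 6961 FPKM in heat-stressed cells and 2540 FPKM in wild type cells (log2 ratio 1.45, 2.74-fold). The reductase *trr1*, which supplies it with electrons, was at 180 FPKM in heat-stressed cells and 281 FPKM in wild type cells (log2 ratio -0.64), on the other side of 0 from *trx1*. *trx2*, the mitochondrial thioredoxin, fell to 43.2 FPKM in heat-stressed cells, against 98.3 FPKM in wild type cells (log2 ratio -1.19).

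Between the glutaredoxins the split was similar. *grx1* rose to 3489 FPKM in heat-stressed cells, against 545 FPKM in wild type cells (log2 ratio 2.68, 6.41-fold), and *grx2* was at 75.0 FPKM in heat-stressed cells and 81.5 FPKM in wild type cells (log2 ratio -0.12). The abundant member of the pair thus rose and the scarce one stayed within 2-fold. *sod1*, the copper-zinc superoxide dismutase, was at 1157 FPKM in heat-stressed cells and 823 FPKM in wild type cells (log2 ratio 0.49). After the shift *tpx1* and *trx1* took place 9 and place 10 among all 7008 genes by FPKM, against places 117 and 86 in wild type cells. The summed FPKM of the 10 genes was 23019 in heat-stressed cells and 6692 in wild type cells.

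**Figure D1:**
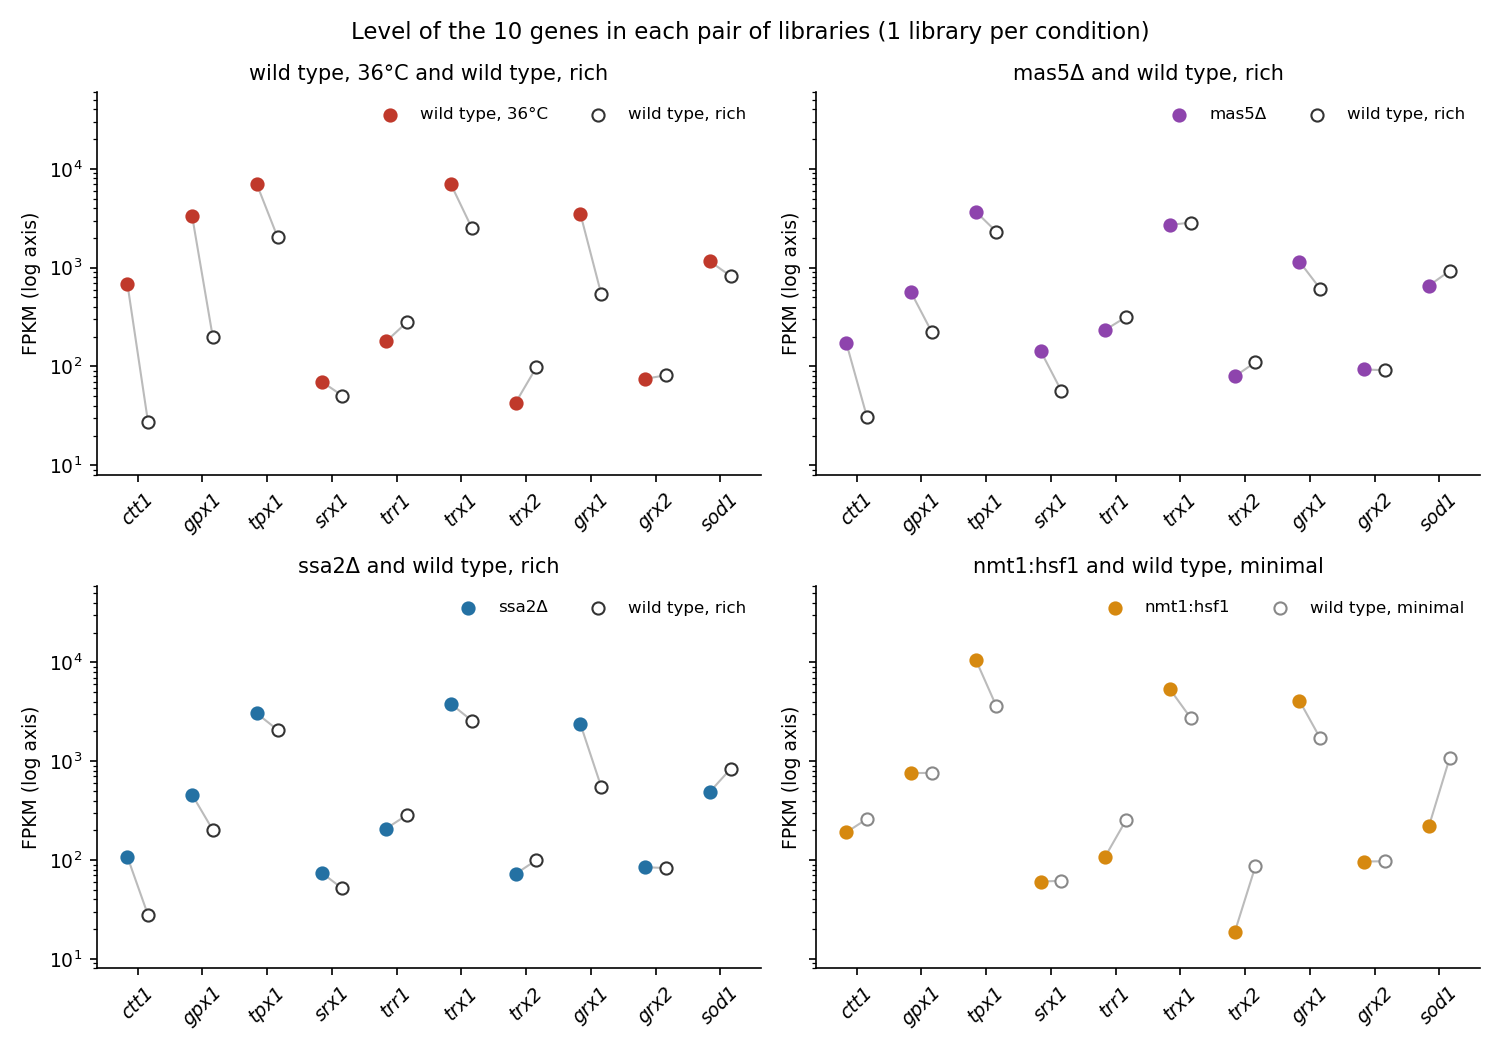
FPKM of the 10 genes on a log axis, in 1 panel per table, with the stressed, mutant or overexpressing library as a filled point left of its wild type library, an open point, and a grey line joining the 2 values of a gene. *ctt1* and *gpx1* show the steepest lines in heat-stressed cells, and *sod1* and *trx2* lie lower in *nmt1:hsf1* cells, at 219 FPKM against 1070 FPKM and 18.6 FPKM against 86.3 FPKM in wild type cells.

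Cells lacking Mas5 showed a narrower change without any temperature shift: *ctt1*, *gpx1* and *srx1* rose, and 0 of the 10 genes fell, where 7.25% of 6465 genes rose and 5.15% fell. The median log2 ratio of the 10 genes was 0.35, and that of all genes 0.044. Catalase mRNA *ctt1* was at 173 FPKM in *mas5Δ* cells and 30.7 FPKM in wild type cells, a log2 ratio of 2.50 (5.64-fold, at the 98.6th percentile of all genes). *gpx1* was at 563 FPKM in *mas5Δ* cells and 224 FPKM in wild type cells, a log2 ratio of 1.33 (2.52-fold). The sulfiredoxin mRNA *srx1* was at 144 FPKM in *mas5Δ* cells and 57.1 FPKM in wild type cells, a log2 ratio of 1.34 (2.53-fold). This was the only 1 of the 4 comparisons in which *srx1* passed 2-fold.

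The peroxiredoxin and the abundant glutaredoxin lay above wild type but within 2-fold. *tpx1* was at 3696 FPKM in *mas5Δ* cells and 2305 FPKM in wild type cells (log2 ratio 0.68), and *grx1* at 1153 FPKM in *mas5Δ* cells and 613 FPKM in wild type cells (log2 ratio 0.91). *trx1* was at 2712 FPKM in *mas5Δ* cells and 2859 FPKM in wild type cells (log2 ratio -0.08), so the cytosolic thioredoxin mRNA, which rose after heat, was near its wild type level here. The other log2 ratios were -0.43 for *trr1*, -0.48 for *trx2*, 0.02 for *grx2* and -0.49 for *sod1*.

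In cells lacking Ssa2 the 3 genes that rose were *ctt1*, *gpx1* and *grx1*, and again 0 of the 10 fell, where 10.9% of 6420 genes rose and 4.14% fell. The median log2 ratio of the 10 genes was 0.54, and that of all genes 0.050. The glutaredoxin mRNA *grx1* led, with 2369 FPKM in *ssa2Δ* cells and 553 FPKM in wild type cells (log2 ratio 2.10, 4.28-fold). *ctt1* was at 108 FPKM in *ssa2Δ* cells and 27.7 FPKM in wild type cells (log2 ratio 1.96, 3.9-fold). *gpx1* was at 458 FPKM in *ssa2Δ* cells and 202 FPKM in wild type cells (log2 ratio 1.18, 2.27-fold). Against *mas5Δ* cells, which were compared with the same wild type library, *grx1* and not *srx1* was the third gene to pass 2-fold.

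Peroxiredoxin, thioredoxin and sulfiredoxin mRNAs stood near 1.5-fold in *ssa2Δ* cells. *tpx1* was at 3042 FPKM in *ssa2Δ* cells and 2079 FPKM in wild type cells (log2 ratio 0.55), *trx1* at 3794 FPKM in *ssa2Δ* cells and 2579 FPKM in wild type cells (log2 ratio 0.56). *srx1* was at 74.5 FPKM in *ssa2Δ* cells and 51.5 FPKM in wild type cells (log2 ratio 0.53). *sod1* had the lowest ratio of the 10, with 490.4 FPKM in *ssa2Δ* cells and 836 FPKM in wild type cells (log2 ratio -0.77, at the 6.66th percentile of all genes). The remaining log2 ratios were -0.46 for *trr1*, -0.46 for *trx2* and 0.03 for *grx2*.

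The rises of *ctt1* and *gpx1* in both chaperone mutants, and of *grx1* in *ssa2Δ* cells, were against wild type cells of the same rich medium. Set against the wild type library of minimal medium instead, which differs in medium and in table scaling, the log2 ratios in *mas5Δ* cells were -0.59 for *ctt1* and -0.44 for *gpx1*, and those in *ssa2Δ* cells -1.27 for *ctt1*, -0.73 for *gpx1* and 0.47 for *grx1*. The rise of *srx1* in *mas5Δ* cells stayed past 2-fold against that library (log2 ratio 1.23). In wild type cells *ctt1*, *gpx1* and *grx1* were themselves higher in minimal than in rich medium (log2 ratios 3.26, 1.94 and 1.65). The ratios against the minimal medium library therefore include the difference between the media. The reference library cannot be told apart from the medium here, and the heat comparison was not set against that library.

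Overexpression of Hsf1 gave another pattern: the abundant mRNAs *tpx1* and *grx1* rose, *sod1*, *trx2* and *trr1* fell, and *ctt1* and *gpx1* did not pass 2-fold. In this table, whose ratios spread the most, 27.1% of 6335 genes rose and 16.7% fell, beside 2 and 3 of the 10 genes. Without non-coding RNAs 22% rose and 16.7% fell. Neither count of the 10 genes is read as different from these shares. The median log2 ratio of the 10 genes was -0.02, and that of all genes 0.087. *tpx1* reached 10641 FPKM in *nmt1:hsf1* cells, against 3578 FPKM in wild type cells of minimal medium (log2 ratio 1.57, 2.97-fold), place 4 among all genes of the library. *grx1* was at 4096 FPKM in *nmt1:hsf1* cells and 1713 FPKM in wild type cells (log2 ratio 1.26, 2.39-fold). The ratios of *tpx1* and *grx1* lay only at the 82.7th and 77.6th percentile of all genes. *trx1*, at 5339 FPKM in *nmt1:hsf1* cells and 2741 FPKM in wild type cells, stayed just inside 2-fold (log2 ratio 0.96, 1.95-fold).

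The mRNAs *ctt1* and *gpx1*, which led under heat, lay at or below wild type when Hsf1 was overexpressed, unlike that of *tpx1*. The heat shift lasted 15 minutes in rich medium, whereas *nmt1:hsf1* cells were kept for hours in minimal medium without thiamine. Time and medium therefore differ between these comparisons. In wild type cells *ctt1* and *gpx1* were already higher in minimal than in rich medium (log2 ratios 3.26 and 1.94). *ctt1* was at 191 FPKM in *nmt1:hsf1* cells and 260.4 FPKM in wild type cells (log2 ratio -0.45). *gpx1* was at 757 FPKM in *nmt1:hsf1* cells and 762 FPKM in wild type cells (log2 ratio -0.01). *srx1* was at 60.4 FPKM in *nmt1:hsf1* cells and 61.6 FPKM in wild type cells (log2 ratio -0.03), and *grx2* had a log2 ratio of -0.01.

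The 3 genes that fell serve superoxide removal, mitochondrial thioredoxin and thioredoxin reduction. *sod1* fell to 219 FPKM in *nmt1:hsf1* cells, against 1070 FPKM in wild type cells (log2 ratio -2.29), *trx2* to 18.6 FPKM in *nmt1:hsf1* cells, against 86.3 FPKM in wild type cells (log2 ratio -2.22), and *trr1* to 108 FPKM in *nmt1:hsf1* cells, against 252 FPKM in wild type cells (log2 ratio -1.22). The ratios of *sod1* and *trx2* lay at the 3.05th and 3.43rd percentile of all genes.

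**Figure D2:**
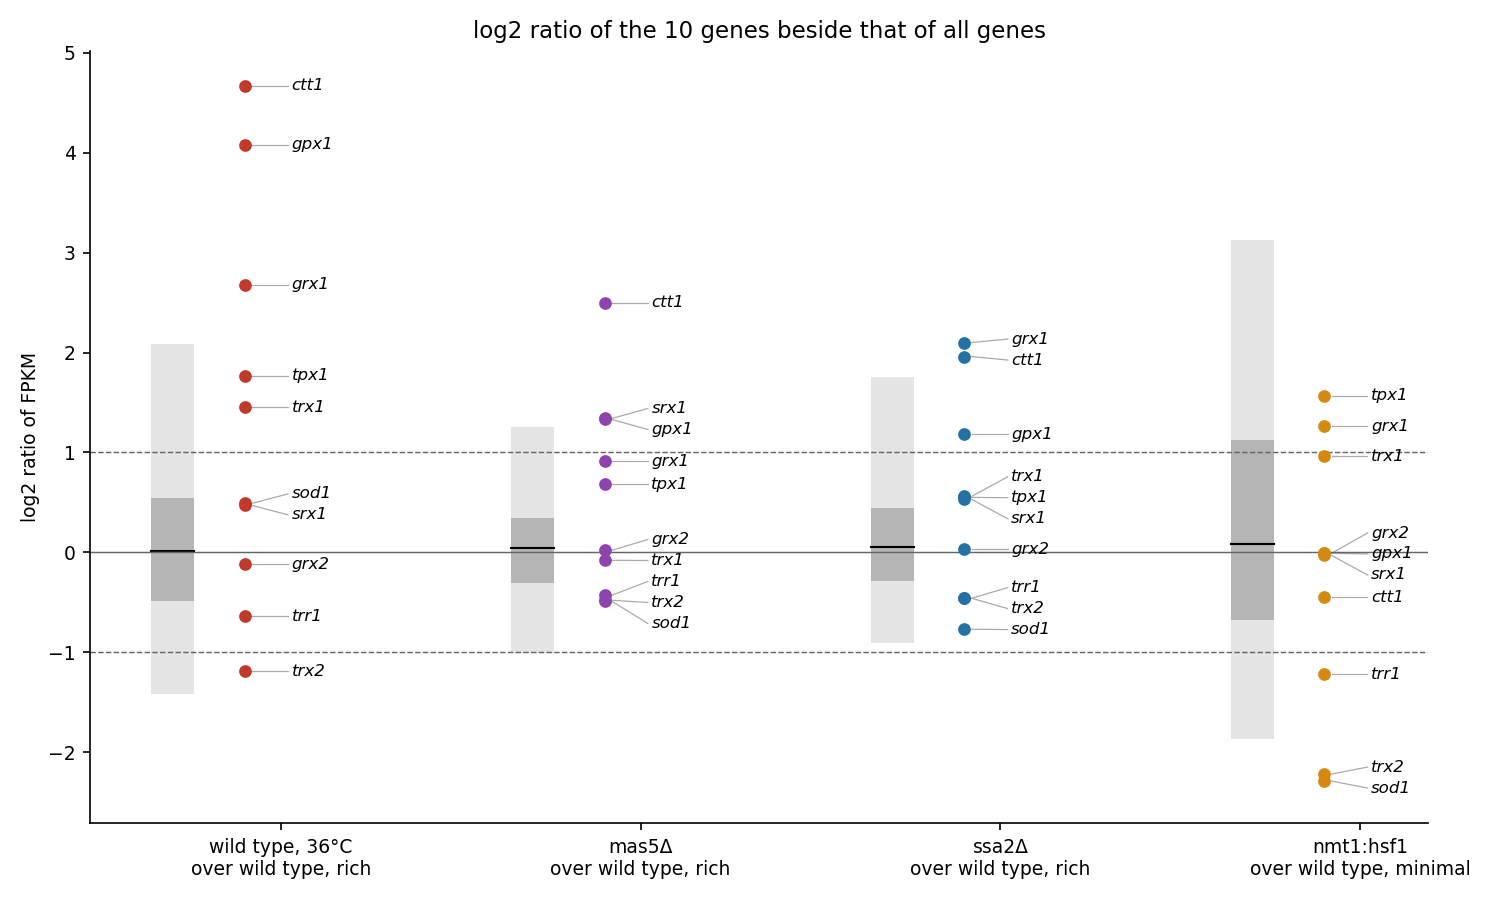
log2 ratio of FPKM of the 10 genes (points, by name) in the 4 comparisons, with dashed lines at 2-fold; the bars beside them give all genes, from the 5th to the 95th percentile in light grey, from the 25th to the 75th in dark grey, with the median as a line. *ctt1* lies above the 95th percentile in heat-stressed, *mas5Δ* and *ssa2Δ* cells and at -0.45 in *nmt1:hsf1* cells, where the light bar reaches from -1.87 to 3.13.

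Across the 4 comparisons, *tpx1* and *grx1* were above 0 in each, *trr1* and *trx2* below 0 in each, and *grx2* was the only 1 of the 10 genes within 2-fold in each. *ctt1* spanned the most, from -0.45 to 4.67. The 3 comparisons in rich medium share a wild type library, so a high or low value there enters all of them. The share of all genes with the same sign, or within 2-fold, in all 4 comparisons was not computed.

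Catalase, glutathione peroxidase and *grx1* mRNAs also differed between the wild type cells of the 2 media. *ctt1* was at 260.4 FPKM in minimal and 27.2 FPKM in rich medium (log2 ratio 3.26), *gpx1* at 762 FPKM in minimal and 199 FPKM in rich medium (log2 ratio 1.94), and *grx1* at 1713 FPKM in minimal and 545 FPKM in rich medium (log2 ratio 1.65). These 3 of the 10 genes were more than 2-fold higher in minimal medium and 0 were lower, against 9.52% and 6.47% of 6379 genes. The 2 libraries come from tables scaled separately and carry different media, and genes averaging 1 FPKM or more had a median log2 ratio of 0.132. The other 7 genes had log2 ratios between -0.19 (*trx2*) and 0.81 (*tpx1*). With the rich medium library as reference, *nmt1:hsf1* cells had a log2 ratio of 2.81 for *ctt1* and 1.93 for *gpx1*, against -0.45 and -0.01 within their own medium.

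Ratios between 2 genes of 1 library do not depend on the scaling of a table, and FPKM is per length. The FPKM ratio of *tpx1* to *ctt1* was 10.1 in heat-stressed cells, 21.4 in *mas5Δ*, 28.2 in *ssa2Δ* and 55.8 in *nmt1:hsf1* cells, against 75.2 in wild type cells in rich and 13.7 in minimal medium. Catalase mRNA was thus lowest beside peroxiredoxin mRNA in unstressed wild type cells of rich medium. The ratio of *tpx1* to *srx1* was 99.3 in heat-stressed cells, 25.6 in *mas5Δ*, 40.8 in *ssa2Δ* and 176 in *nmt1:hsf1* cells, against 40.4 in wild type cells in rich and 58.1 in minimal medium. Peroxiredoxin mRNA was thus higher beside its repair enzyme after heat and Hsf1 overexpression, and lower beside it in *mas5Δ* cells.

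Thioredoxin mRNA stood highest beside its reductase in the same 2 libraries. The ratio of *trx1* to *trr1* was 38.7 in heat-stressed cells, 11.6 in *mas5Δ*, 18.2 in *ssa2Δ* and 49.3 in *nmt1:hsf1* cells, against 9.03 in wild type cells in rich and 10.9 in minimal medium. The ratio of cytosolic *trx1* to mitochondrial *trx2* was 161 in heat-stressed cells, 34.2 in *mas5Δ*, 52.4 in *ssa2Δ* and 288 in *nmt1:hsf1* cells, against 25.8 in wild type cells in rich and 31.7 in minimal medium. The ratio of *grx1* to *grx2* was 46.5 in heat-stressed cells, 12.4 in *mas5Δ*, 28 in *ssa2Δ* and 42.5 in *nmt1:hsf1* cells, against 6.68 in wild type cells in rich and 17.6 in minimal medium. In each of these 3 pairs the ratio was lowest in wild type cells of rich medium.

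**Figure D3:**
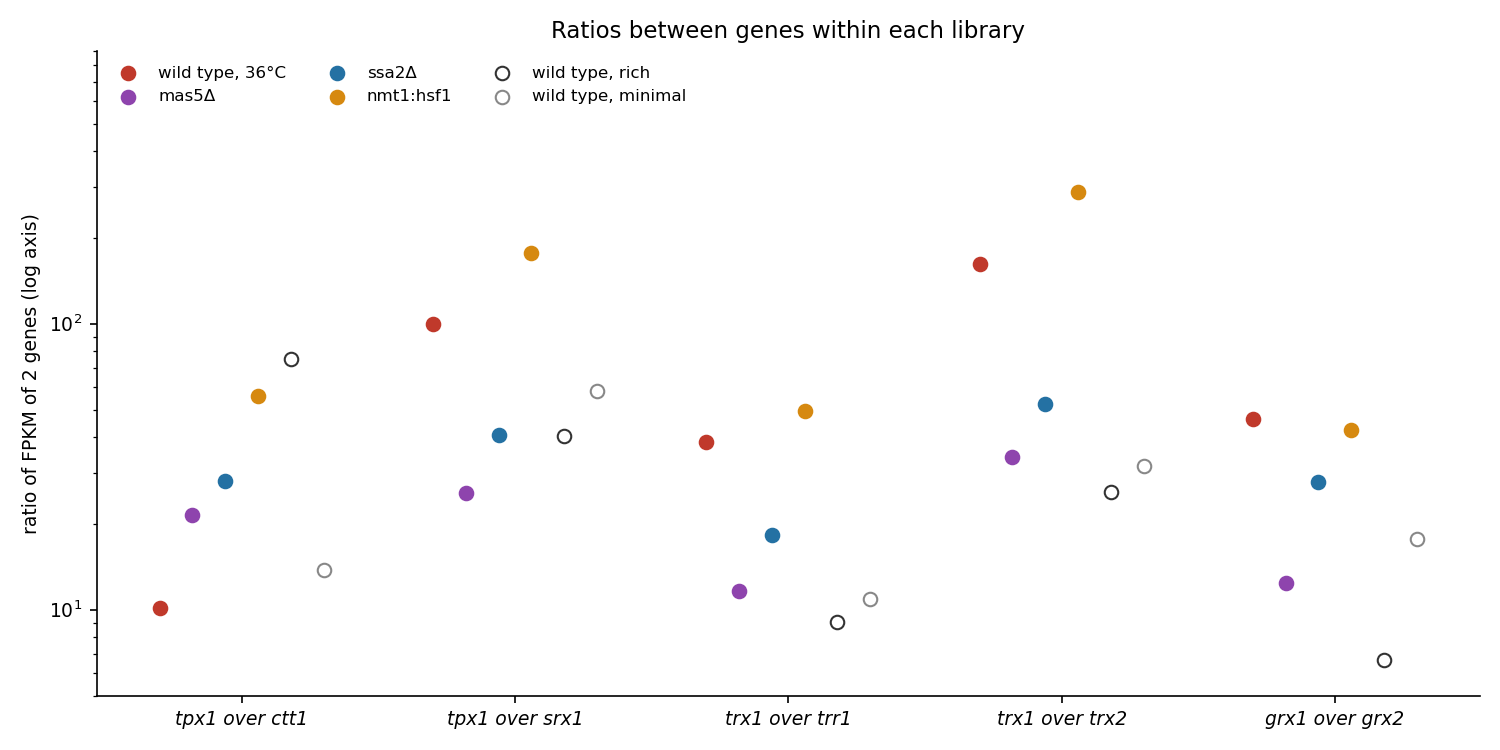
Ratio of the FPKM of 2 genes within each of the 6 libraries, on a log axis, with heat-stressed, *mas5Δ*, *ssa2Δ* and *nmt1:hsf1* cells as filled points and the wild type libraries of rich and minimal medium as open points to their right. *trx1* over *trx2* reaches 288 in *nmt1:hsf1* cells, against 31.7 in wild type cells of minimal medium, and *tpx1* over *ctt1* is lowest in heat-stressed cells at 10.1.

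By FPKM, *tpx1* and *trx1* were the 2 most abundant of the 10 genes in all 6 libraries, with *tpx1* ahead in 4 of them and *trx1* ahead in *ssa2Δ* cells and in wild type cells of rich medium. Together *tpx1*, *trx1* and *grx1* made up most of the summed FPKM of the 10 genes in each library. Their shares were 49.4%, 24.8% and 19% in *nmt1:hsf1* cells, and 33.7%, 25.8% and 16.1% in wild type cells of minimal medium. *gpx1* took place 4 of the 10 in heat-stressed cells, against place 6 in wild type cells of rich medium, and *ctt1* place 6, against place 10. In unstressed wild type cells of minimal medium *gpx1* was at place 5 and *ctt1* also at place 6. *trx2* was last in heat-stressed, *mas5Δ*, *ssa2Δ* and *nmt1:hsf1* cells, and *ctt1* in wild type cells of rich medium.

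Of the 10 genes, 7 share a locus in the tables with other listed genes, and the strand setting of the counting is not given in the sources used here, so reads of overlapping genes cannot be told apart. *tpx1* shares its locus with *bxi1* and 3 non-coding RNAs, but at 2047 FPKM, against 47.2 FPKM for *bxi1*, in wild type cells. *srx1*, *trr1* and *trx2* are less clear. A neighbour of *srx1*, SPBC106.03, was at 122 FPKM in wild type cells, above *srx1* itself, and had log2 ratios of 0.88 after heat and 0.07 in *mas5Δ* cells. The non-coding RNA SPNCRNA.305 of that locus was at 10.0 FPKM in wild type cells. Its log2 ratios were -0.15 after heat, -2.30 in *mas5Δ* and -0.17 in *ssa2Δ* cells. The other neighbours of *srx1*, *mph1* and SPNCRNA.1350, had log2 ratios of 0.01 and 0.46 in *mas5Δ* cells. A neighbour of *trr1*, SPBC3F6.02c, was at 173 FPKM in wild type cells with log2 ratios of 0.14 after heat and -0.40 in *nmt1:hsf1* cells. That of *trx2*, *srb11*, was at 35.9 FPKM, against 98.3 FPKM for *trx2*, in wild type cells. Its log2 ratios were -0.38 after heat and 0.14 in *nmt1:hsf1* cells. Genes named below share loci too. Among them, the loci of *gst3*, *sro1* and *pmp20* hold 4 genes each, and those of *obr1* and the non-coding RNA SPNCRNA.1346 hold 6. That of the non-coding RNA SPNCRNA.570 holds 3.

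Other enzymes of the same chemistry mostly stayed within 2-fold. The counts of this list and the next ones are read beside the shares of all genes that rose (14.1% after heat, 7.25% in *mas5Δ*, 10.9% in *ssa2Δ* and 27.1% in *nmt1:hsf1* cells) and fell (10.3% after heat, 5.15% in *mas5Δ*, 4.14% in *ssa2Δ* and 16.7% in *nmt1:hsf1* cells). Of 14 further peroxide, superoxide and thiol enzymes, 3 rose after heat (*gst3*, *sod2* and the peroxiredoxin *pmp20*), 1 in *mas5Δ* cells (*gst3*) and 2 in *ssa2Δ* cells (*gst3* and the thioredoxin peroxidase *bcp1*), with 0 falling in any of them. In *nmt1:hsf1* cells 2 rose (*sod2* and the glutathione transferase *gst1*) and 1 fell (the monothiol glutaredoxin *grx5*). The median log2 ratio of the list was 0.16 after heat, where that of all genes was 0.008, and it lay between -0.32 (*nmt1:hsf1*) and 0.40 (*ssa2Δ*) in the other comparisons. The glutathione transferase mRNA *gst3* was at 249 FPKM in heat-stressed cells and 43.8 FPKM in wild type cells (log2 ratio 2.51), and it also rose in *mas5Δ* (log2 ratio 1.28) and *ssa2Δ* cells (1.44) but had a log2 ratio of -0.59 in *nmt1:hsf1* cells. These signs are those of *ctt1*. *sod2*, the mitochondrial manganese superoxide dismutase (SPAC1486.01), was at 417 FPKM in heat-stressed cells and 139 FPKM in wild type cells (log2 ratio 1.58), and at 686 FPKM in *nmt1:hsf1* cells and 306 FPKM in wild type cells (log2 ratio 1.16). In *nmt1:hsf1* cells the mitochondrial and the copper-zinc superoxide dismutase mRNAs thus went opposite ways.

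Of 6 genes that supply NADPH and glutathione, 2 rose after heat, *gnd1* (log2 ratio 2.01) and *zwf1* (1.11), both dehydrogenases of the pentose phosphate pathway. In *ssa2Δ* cells 1 rose, *gcs1* (1.34), which makes the precursor of glutathione, and in *mas5Δ* and *nmt1:hsf1* cells 0 rose. In this list 0 genes fell in any comparison, and its median log2 ratio was highest after heat, at 0.68. Of 11 genes of peroxide signalling, 3 rose after heat (*pcr1*, *atf1* and the phosphorelay protein gene *mpr1*) and 1 fell (*wis1*), 1 rose in *mas5Δ* cells (*pcr1*), and 2 rose in *ssa2Δ* cells (*pcr1* and *pap1*). In *nmt1:hsf1* cells 4 rose: *hsf1* itself, *wis1*, and the genes *mak2* (log2 ratio 2.45) and *mak3* (1.87) of the histidine kinases that sense peroxide. Without the overexpressed *hsf1* these were 3 of 10 genes, close to the 27.1% of all genes. The median of these 11 genes lay between -0.05 (*nmt1:hsf1*) and 0.23 (*ssa2Δ*). *pcr1*, the partner of Atf1, was at 247 FPKM in heat-stressed cells and 49.3 FPKM in wild type cells (log2 ratio 2.32), with log2 ratios of 1.19 in *mas5Δ*, 1.26 in *ssa2Δ* and -0.74 in *nmt1:hsf1* cells. *wis1*, the kinase that activates Sty1, fell after heat (log2 ratio -1.14) and rose in *nmt1:hsf1* cells (1.43), at levels from 8.31 to 37.6 FPKM.

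Of 5 other targets of Pap1, 1 rose after heat (*sro1*), 1 fell in each of *mas5Δ* and *ssa2Δ* cells (*bfr1*), and 3 fell in *nmt1:hsf1* cells (*sro1*, *bfr1* and *obr1*), where the median of the 5 was -1.03 and that of all genes 0.087. The transporter mRNA *bfr1* fell in *mas5Δ* (log2 ratio -1.08), *ssa2Δ* (-1.03) and *nmt1:hsf1* cells (-1.08) and was at 0.38 after heat. *sro1* was at 1449 FPKM in heat-stressed cells and 243 FPKM in wild type cells (log2 ratio 2.58), and at 69.8 FPKM in *nmt1:hsf1* cells and 358 FPKM in wild type cells (log2 ratio -2.36), so it passed 2-fold in opposite directions. Among 4 clients of thioredoxin, *cdc22*, the large subunit of ribonucleotide reductase, was at 61.2 FPKM in heat-stressed cells and 263 FPKM in wild type cells (log2 ratio -2.10), and at 86.7 FPKM in *nmt1:hsf1* cells and 187 FPKM in wild type cells (log2 ratio -1.11). The only other client past 2-fold was *met16*, the phosphoadenylylsulfate reductase, which rose in *nmt1:hsf1* cells (log2 ratio 1.68). The medians of the 4 clients lay between -0.27 (*mas5Δ*) and 0.15 (*nmt1:hsf1*).

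**Figure D4:**
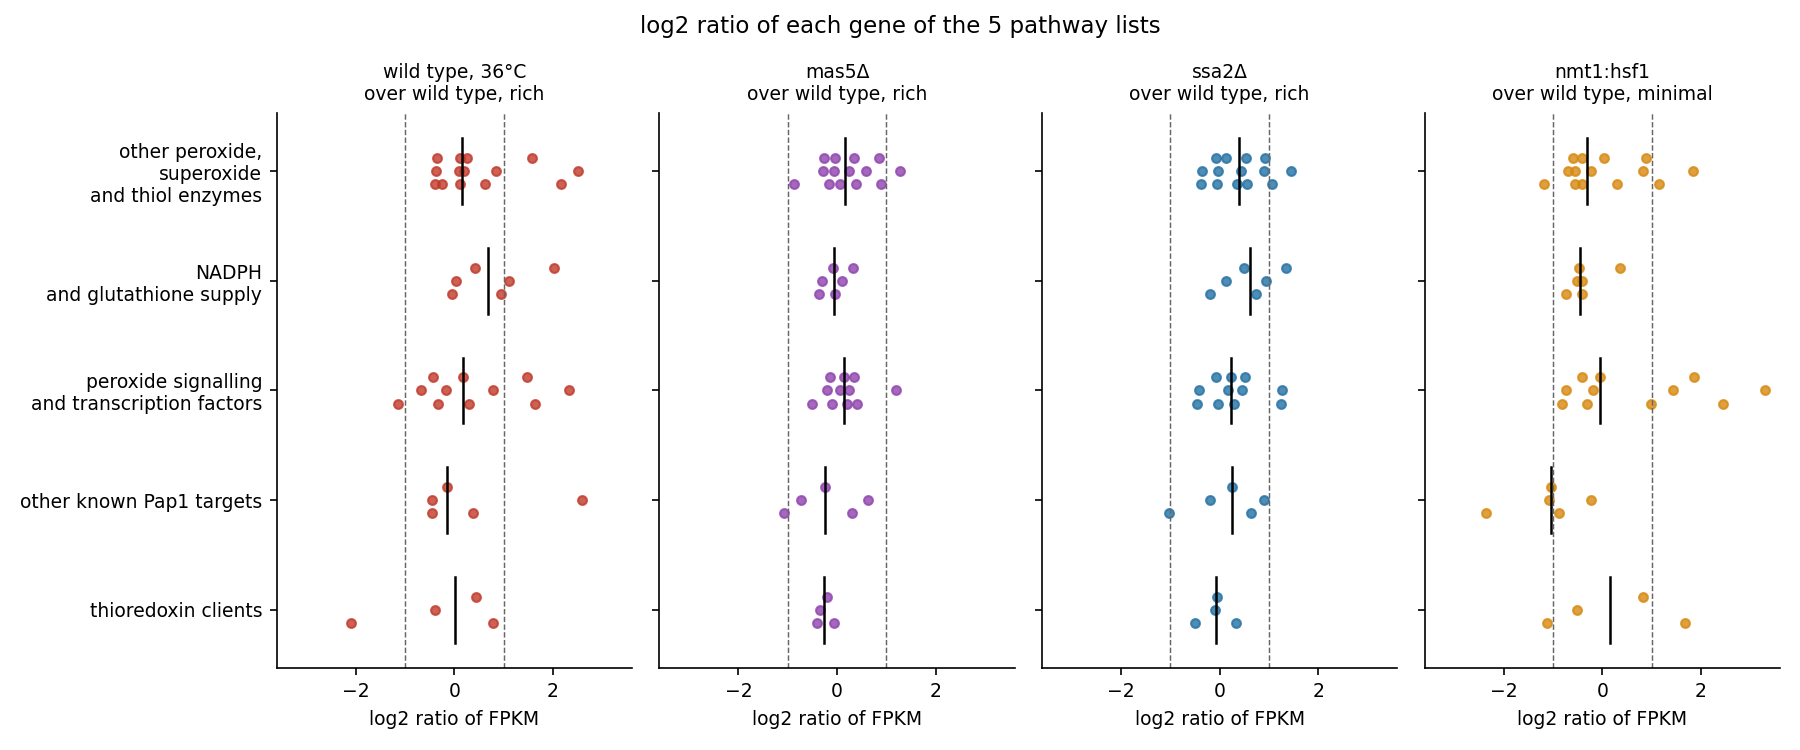
log2 ratio of FPKM of each gene (point) of the 5 pathway lists in the 4 comparisons, with the median of a list as a black line and dashed lines at 2-fold; vertical offsets only separate the points. The NADPH and glutathione list has its median at 0.68 after heat and 0.61 in *ssa2Δ* cells, against -0.07 in *mas5Δ* and -0.45 in *nmt1:hsf1* cells, and the list of other Pap1 targets is lowest in *nmt1:hsf1* cells, at -1.03.

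Likeness to a gene was measured as the Euclidean distance over the 4 log2 ratios, for the 4832 genes averaging 10 FPKM or more in every table. Nearest to *gpx1* was *gpd1*, the glycerol phosphate dehydrogenase of the osmotic stress response, at a distance of 0.82, with log2 ratios of 3.69 after heat, 1.34 in *mas5Δ*, 1.60 in *ssa2Δ* and -0.59 in *nmt1:hsf1* cells, followed by SPAC22F8.05 at 1.03. Nearest to *ctt1* were SPACUNK4.17 at 1.11 and the non-coding RNA SPNCRNA.570 at 1.19, both farther off than any neighbour of the other genes examined. *tpx1* had the closer neighbours *gos1* at 0.29 and *btn1* at 0.34, 2 of 7 genes within 0.5. For *srx1* these were SPNCRNA.1346 at 0.28 and SPAC1952.04c at 0.51.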

How the data were processed

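RNA with oligo-dT selection was sequenced from 6 libraries, 1 per condition. The submitters' processing notes name FastQC, TopHat and Cuffdiff, whose versions and genome build are not given in the sources used here. The authors deposited 4 Cuffdiff tables of FPKM, each scaled over its own 2 libraries. Low values did not fall on whole steps, so reads were not recovered and the depth, and with it any counting error, is unknown. The deposited columns of fold change, test statistic, p-value and q-value were not used.

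From the FPKM, the log2 ratio of the treated or mutant library over its wild type library was computed with no pseudocount where the 2 values were above 0, and counted past 2-fold (Python 3.11.15, pandas 2.3.3, numpy 2.4.6, figures with matplotlib 3.10.9). The computation was tested on simulated data. No test between conditions is possible with 1 library each. Gene starts and bases came from RefSeq assembly ASM294v3, on whose gene ends 99.6% of 2253 loci of the files that hold 1 gene have their start or end. Symbols of the pathway lists were matched through RefSeq, since the tables give the symbol *sod2* to another gene. The text names all 10 genes, genes of the lists past 2-fold in at least 2 comparisons, and the 2 nearest genes of *ctt1*, *gpx1*, *tpx1* and *srx1*. Other list genes were named after their values were seen. The genes and lists were chosen with earlier results of these data known. Alternatives were a pseudocount of 1 FPKM, centring, folds of 1.5 and 3, filters on low values or non-coding RNAs, and other wild type libraries.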

Additional observations from a re-analysis of the deposited data

How the results depend on the processing

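Without replicates, these values carry no error. With a pseudocount of 1 FPKM all 40 log2 ratios of the 10 genes kept their sign and their side of 2-fold, and with centring on the median of all genes 38 did; the other 2 were those of *grx2* in *mas5Δ* and *ssa2Δ* cells, both -0.02. At 1.5-fold the counts that changed were 2 falling after heat (1 at 2-fold), 5 rising in *mas5Δ* (3), 1 falling in *ssa2Δ* (0) and 3 rising in *nmt1:hsf1* cells (2). At 3-fold they were 4 rising (5) and 0 falling (1) after heat, 1 rising in *mas5Δ* (3), 2 rising in *ssa2Δ* (3), and 0 rising (2) and 2 falling (3) in *nmt1:hsf1* cells. The wild type library of minimal medium, which is not the medium of *mas5Δ* and *ssa2Δ* cells, was also used as their reference. Against it 1 gene rose in *mas5Δ* cells and 0 in *ssa2Δ* cells, and 2 fell in *ssa2Δ* cells. The medians were -0.11 (*mas5Δ*) and -0.24 (*ssa2Δ*). In *mas5Δ* cells *ctt1* then turned to -0.59 and *gpx1* to -0.44, and in *ssa2Δ* cells *ctt1* to -1.27 and *gpx1* to -0.73. The next 2 alternatives were chosen after seeing the data. With the wild type library of rich medium as reference, 5 genes rose in *nmt1:hsf1* cells, with a median of 0.66. Shares of all genes were not computed at 1.5-fold, at 3-fold or with another reference library, so the counts given there have no background. Over the 3 genes alone in their locus the medians were 2.68 after heat, 0.91 in *mas5Δ*, 1.96 in *ssa2Δ* and -0.45 in *nmt1:hsf1* cells. Among genes averaging 10 FPKM or more, 3.57% rose in *mas5Δ* and 2% fell in *ssa2Δ* cells, and without non-coding RNAs 4.65% rose in *mas5Δ* and 2.32% fell in *ssa2Δ* cells. The cause of these shifts was not tested. No paired analysis was possible because the result comes from no test and each condition has 1 library.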
